A study of Mus musculus with 2 samples.

Results

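The genes described here are 10 genes best known from endothelial cells, the cells that line blood vessels, measured in cultures of dentate gyrus (DG) astrocytes. They are Pecam1, Cldn5, Tek, Tie1, Emcn, Esam, Eng, Egfl7, Vwf and Erg, taken by gene symbol from the expression tables of the WT and the β-arr1 KO library. All 10 were listed in both tables, out of 16302 symbols listed in at least one table. The WT mice carried functional β-arrestin 1 (β-arr1), and the KO mice lacked it in every cell, so that an endothelial cell in the KO culture would lack it too. Both genotypes were labelled C57BL/6, and the cells were grown from adult DG on Matrigel, a basement membrane extract, in medium with serum. Shaking was used to remove dividing cells, oligodendrocyte progenitors and neurons, and purity was judged by staining for s100β. No step against vessel cells is named in the sources used here, which also do not give the sex of the mice. The cDNA is labelled as pooled, and 1 library was sequenced per genotype, so no difference between WT and KO has a replicate check and no p-value was computed.

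Endothelial cells are held together by adherens junctions, tight junctions and adhesion molecules of the immunoglobulin family, such as PECAM1 and ESAM. Claudin 5 (Cldn5) is the tight junction protein that seals the blood-brain barrier. Vessel growth and quiescence are tuned by receptors on these cells. TIE2, encoded by Tek, binds angiopoietins, TIE1 pairs with it, and endoglin, encoded by Eng, is a co-receptor for BMP9 and other ligands of the TGF-β family. Endomucin (Emcn) is a sialomucin of the luminal surface, EGFL7 is a secreted matrix protein, von Willebrand factor (Vwf) is stored in endothelial granules and tethers platelets, and ERG is an ETS family transcription factor that maintains endothelial identity. Several of these genes are not limited to endothelium, since PECAM1 is also found on platelets and some leukocytes and endoglin on stromal cells and activated macrophages.

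Values are FPKM, fragments scaled by transcript length and by the number of mapped fragments, which allow levels to be compared between genes. The estimated number of mapped fragments was 9.38 M for the WT library and 9.52 M for the KO library. Fragments per gene were estimated from this depth, and 95% intervals from them cover counting error only. The knocked-out gene Arrb1 was at 7.62 FPKM (WT) and 2.72 FPKM (KO), a ratio of 0.358. Of 4 Y chromosome genes, 0 were listed in WT and 4 in KO, with a sum of 8.44 FPKM, so that genotype and the sex of the pooled mice cannot be told apart in these libraries. The astrocyte marker Gfap was at 189 and 192 FPKM in WT and KO, and markers of other cells reached higher sums than the astrocyte list. The 17 microglia and macrophage genes summed to 5169 FPKM in WT and 3332 FPKM in KO, and 16 mural cell genes to 5903 and 5621 FPKM. Lyz2 held most of the first sum (WT 3410, KO 2009 FPKM). Acta2 (2478, 2469) and Tagln (2915, 2597) held most of the second. Only 13 of the 16 mural cell genes were listed. Of these, Mcam reached 131 and 177 FPKM, while Abcc9, Vtn and Higd1b stayed under 1 FPKM. The share of each cell type in the cultures was not tested.

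The 10 endothelial genes ranged from among the lowest to among the highest listed genes. Esam and Emcn stood above 10 FPKM in both libraries, and Eng did so in WT, at 41.2 FPKM. The row listed as Eng in KO, at 162.6 FPKM, also covers Ak1 and is not a level of Eng alone. Esam was at 35.6 FPKM (WT) and 41.6 FPKM (KO), above 86.8% and 88.6% of the listed genes. Emcn was at 13.2 and 15.3 FPKM, above 65.6% and 69.1% of them. At the other end, Erg at 0.667 FPKM was above 18.1% of the listed genes in WT, and Tek at 0.478 FPKM above 15.3% in KO. The Eng level was 61.8 times the Erg level in WT. Levels under 1 FPKM were found for 4 of the genes in WT (Vwf, Tie1, Tek and Erg) and for 2 in KO (Cldn5 and Tek).

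**Figure D1:**
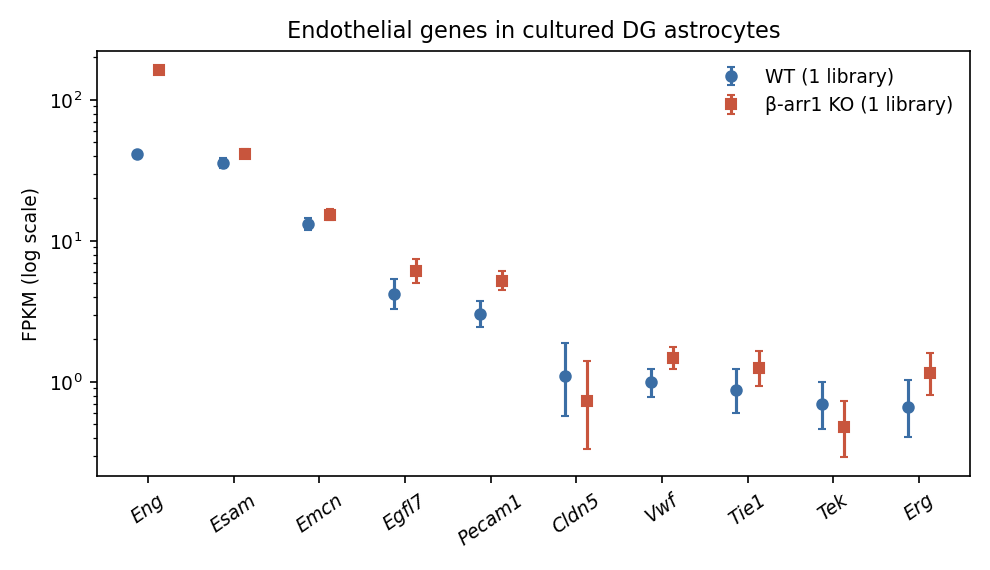
FPKM of each endothelial gene (log axis) in the WT library (circles) and the β-arr1 KO library (squares), ordered by the WT level, with 95% intervals for counting error. Esam and Emcn lie above 10 FPKM in both libraries, and the KO value of Eng, at 163 FPKM, has no interval because its row also covers Ak1.

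Esam, Emcn, Egfl7 and Pecam1 followed each other in the same order in both libraries. Eng stood above Esam by 1.16-fold in WT (95% interval, 1.05 to 1.28), and its place in KO is not known, since the KO row of Eng also covers the gene Ak1. In WT the order ran Eng, Esam, Emcn, Egfl7, Pecam1, Cldn5, Vwf, Tie1, Tek and Erg. Esam exceeded Emcn by 2.69-fold in WT (95% interval, 2.36 to 3.06) and by 2.72-fold in KO (2.42 to 3.06), and Emcn exceeded Egfl7 by 3.14-fold (2.42 to 4.13) and 2.48-fold (1.999 to 3.103). Egfl7 and Pecam1 did not differ beyond counting error in either library, with folds of 1.39 (0.999 to 1.93) and 1.18 (0.913 to 1.52). From Cldn5 down to Erg in WT, each gene lay within counting error of the next one. In KO the same held from Vwf through Tie1, Erg and Cldn5 to Tek.

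To compare the genotypes, the KO value was divided by the WT value, with the limits of 3/2 and 2/3 that the study used. A gene was analysed where either library reached 1 FPKM, which left out Tek and kept 9 of the 10 endothelial genes. The deposited values were higher in KO for 8 of these 9 genes, the exception being Cldn5. Tie1, Vwf and Erg reached 1 FPKM in KO only, and so were analysed only through the library in which they were higher. Cldn5 reached it in WT only, and Tek, left out, was lower in KO. With 1 FPKM required in both libraries, 5 of the genes remained (Pecam1, Emcn, Esam, Eng and Egfl7), with 2 above 3/2 and 0 below 2/3. Those 2 were Pecam1 and Eng, and the KO row of Eng also covers Ak1. The share of all genes past the limits was not computed for this filter. Over all 12646 analysed genes, 6707 (53%) had a ratio above 1. Of the 9 genes, Pecam1, Eng and Erg (3 genes) were above 3/2, and 0 were below 2/3. With Eng left out, because its KO row also covers Ak1, 7 of 8 were higher in KO and 2 of 8 above 3/2. Among all analysed genes 9.56% were above 3/2 and 8.28% below 2/3. Among the 11731 genes in both tables that overlap no row listed in one table only, the shares were 7.6% and 6.37%, and Eng is not one of these genes. These shares depended on the level. Among the 1047 genes whose higher value lay between 1 and 2 FPKM, where Cldn5, Tie1, Vwf and Erg belong, 22.9% were above 3/2 and 20.2% below 2/3. The median of log2((KO + 0.1)/(WT + 0.1)) was 0.54 over the 9 genes and 0.02 over all analysed genes. Without Eng, the median over 8 genes was 0.51. In these bulk libraries, fewer cells of a type and less RNA per cell cannot be told apart.

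**Figure D2:**
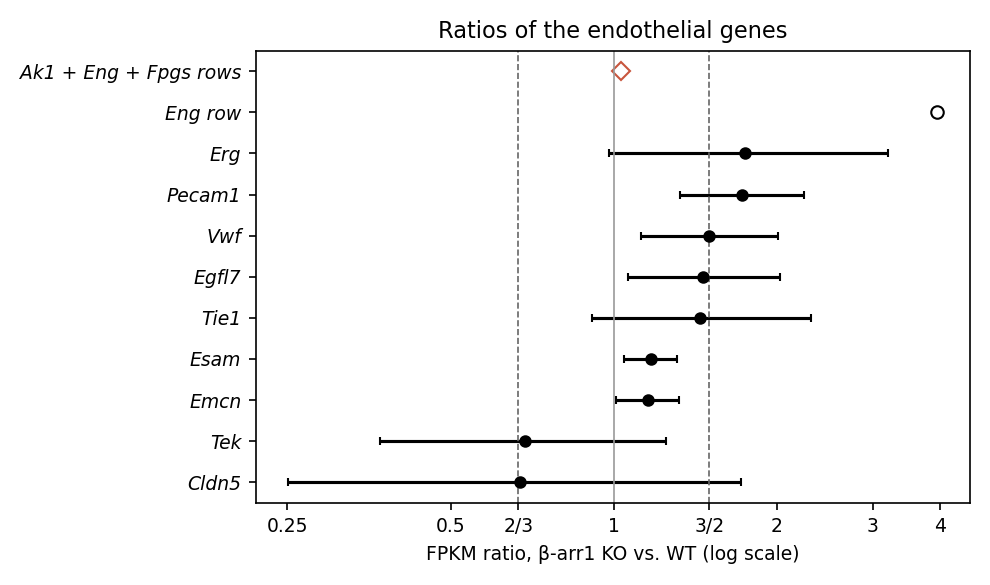
FPKM ratio of β-arr1 KO vs. WT (log axis) for each endothelial gene, with 95% intervals for counting error and dashed lines at the limits of 2/3 and 3/2. Open symbols have no interval, namely the deposited Eng rows at 3.95 and the KO Eng row against the summed WT rows of Ak1, Eng and Fpgs, at 1.03. The Fpgs row in WT shares only 61 bases with the Eng row, and the ratio without Fpgs was 1.10.

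The highest ratio belonged to Eng (NCBI gene 13805), on the plus strand of chromosome 2, and it came with a difference in what the row covered. Eng was listed at 41.2 FPKM (WT) and 162.6 FPKM (KO), a ratio of 3.95. The WT row ran from 32502115 to 32538189 (mm9), which are the bounds of Eng in the GENCODE annotation of NCBIM37. The KO row ran from 32477278 to 32538189. Its start was that of another gene of the same strand, Ak1, which encodes the adenine nucleotide kinase AK1. Ak1 was listed in WT from 32477278 to 32490578 at 107.0 FPKM, and in the KO table it was not listed under its own symbol. The Ak1 and Eng rows in WT were separated by 11536 bases.

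The WT values of Ak1 and Eng added up to 148.2 FPKM, against which the single KO row gave a ratio of 1.10. Fpgs, which encodes the enzyme folylpolyglutamate synthase, lies on the minus strand downstream. Its WT row, at 9.87 FPKM, shared 61 bases with the end of the Eng row, and it too was listed in WT only. With Fpgs added, the WT sum was 158.1 FPKM and the ratio 1.03. The KO row ends where Eng ends, so it covers only those 61 bases of the Fpgs row. A processed transcript of Ak1 in GENCODE, from 32486687 to 32502325, reaches 211 bases past the annotated start of Eng. The genes on either side were listed in both tables, St6galnac6 with a ratio of 0.921 and Cdk9 with a ratio of 1.35. The 1 KO value does not show how many of its fragments came from Eng, so the deposited values give no Eng ratio of the gene alone.

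**Figure D3:**
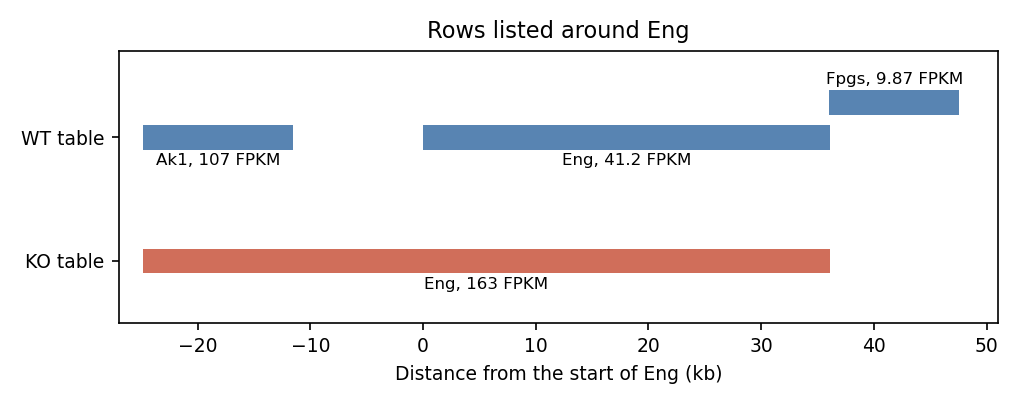
Rows listed around Eng in the WT table (blue) and the KO table (red), drawn to scale by distance in kb from the annotated start of Eng, each with its symbol and FPKM value. The KO row of Eng, at 163 FPKM, covers the stretch that holds the Ak1 row (107 FPKM) and the Eng row (41.2 FPKM) in WT.

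The sequence at the annotated Eng start was taken from RefSeq (GRCm38.p6), since this start separates the Eng row from the Ak1 row in WT. It spans 250 bases before to 50 bases after the start, at chr2:32646345-32646644 of that build, plus strand, not the build of the tables. Matches to AGGAAG, a core recognised by ETS factors such as ERG, are in capitals on either strand (CTTCCT on the other strand). The promoters of Tie1 (chr4:118489800-118490099, minus strand) and Tek (chr4:94739039-94739338, plus strand) are shown beside it because they are the receptor pair among these genes.
Eng: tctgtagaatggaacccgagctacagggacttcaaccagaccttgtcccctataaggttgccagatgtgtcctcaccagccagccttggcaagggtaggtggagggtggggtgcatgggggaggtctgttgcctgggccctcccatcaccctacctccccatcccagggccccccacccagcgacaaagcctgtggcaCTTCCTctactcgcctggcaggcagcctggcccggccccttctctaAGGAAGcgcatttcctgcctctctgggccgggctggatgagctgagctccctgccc
Tie1: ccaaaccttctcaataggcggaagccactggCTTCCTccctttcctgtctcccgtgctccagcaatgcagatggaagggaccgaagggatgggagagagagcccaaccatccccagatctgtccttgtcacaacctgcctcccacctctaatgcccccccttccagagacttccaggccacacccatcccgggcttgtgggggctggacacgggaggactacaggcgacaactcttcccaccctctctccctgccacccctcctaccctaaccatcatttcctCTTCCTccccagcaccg
Tek: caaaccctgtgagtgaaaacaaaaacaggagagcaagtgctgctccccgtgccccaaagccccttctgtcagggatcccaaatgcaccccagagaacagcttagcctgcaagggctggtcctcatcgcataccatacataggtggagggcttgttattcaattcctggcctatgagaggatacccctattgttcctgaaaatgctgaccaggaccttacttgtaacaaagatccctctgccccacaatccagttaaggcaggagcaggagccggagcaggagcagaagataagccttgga
AGGAAG occurred 2 times in the Eng window, 2 times in that of Tie1 and 0 times in that of Tek. Promoters were matched for 7 of the 10 endothelial genes (11 windows, since Egfl7 and Erg have 3 each), and those of Pecam1, Esam and Vwf were not. Of the 7 genes, 5 had the hexamer in at least one window (Tie1, Emcn, Eng, Egfl7 and Erg), and Cldn5 and Tek had it in none. It was found in 6 of the 11 windows, and in 35.4% of all 32851 promoter windows of the same length. The hexamer CCGGAA, found in 14.9% of all windows, was in none of the 11. These are matches of letters and not binding sites.

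Pecam1, Esam and Emcn, which encode adhesion molecules and a sialomucin of the cell surface, had ratios of 1.15 to 1.72. Pecam1 (NCBI gene 18613), on chromosome 11 with bounds 106515532 and 106576595, was at 3.03 FPKM (WT) and 5.22 FPKM (KO). With an estimated 93 and 164 fragments, the ratio was 1.72 and its interval 1.33 to 2.24, and the row bounds were the same in both tables. Esam (NCBI gene 69524), on chromosome 9 with bounds 37335674 and 37345904, had a ratio of 1.17 (interval, 1.04 to 1.31) from 559 and 683 fragments. Emcn (NCBI gene 59308), on chromosome 3 with bounds 137004042 and 137094033, had a ratio of 1.15 (1.01 to 1.32). The Emcn interval included 1 once the libraries were rescaled by the median ratio or the upper quartile, with lower ends of 0.999 and 0.993. Pecam1 was the only one of these 3 genes past 3/2. It was also the only endothelial gene above 3/2 under each of the scalings, pseudocounts and filters tried, with Eng set aside.

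The gene of claudin 5, the tight junction protein, was close to the lower limit but rested on few fragments. Cldn5 (NCBI gene 12741) has a single exon and lies on chromosome 16 with bounds 18776940 and 18778355. Its level was 1.09 FPKM (WT) and 0.735 FPKM (KO). The ratio was 0.672. An estimated 13 and 9 fragments gave an interval of 0.251 to 1.72. A difference could not be detected with so few. Rescaling by the median ratio or the upper quartile moved the ratio to 0.664 or 0.660, just below 2/3. Among 19 other tight junction genes, 14 were analysed. Ocln and Jam2 were above 3/2, Cldn1, Cldn11 and Cgn below 2/3, and 9 lay between. Jam2, an adhesion molecule of junctions, was at 15.4 and 44.3 FPKM (ratio 2.87, interval 2.62 to 3.15). Tjp1, which encodes the scaffold ZO-1, was at 27.4 and 33.9 FPKM, and Jam3 at 26.0 and 28.7 FPKM. Cldn11, the claudin of myelin, was at 1.85 and 1.14 FPKM (interval of the ratio, 0.323 to 1.14). Tjp3 was not analysed here.

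The angiopoietin receptor genes were near the lower end of the range in both libraries, and their ratios lay on either side of 1. Tek (NCBI gene 21687), on chromosome 4 with bounds 94405904 and 94541630 in WT, was at 0.696 FPKM (WT) and 0.478 FPKM (KO). Its ratio of 0.686 had an interval of 0.370 to 1.25 from 29 and 21 fragments. Tie1 (NCBI gene 21846), on chromosome 4 with bounds 118143796 and 118162454, was at 0.876 and 1.26 FPKM (ratio 1.44, interval 0.912 to 2.31) from 33 and 49 fragments. Both intervals included 1 and overlapped each other. Transcripts of the ligands were more abundant than those of the receptors. Angpt2, an antagonist of TIE2 in many settings, was at 48.7 FPKM (WT) and 52.4 FPKM (KO), and Angpt4 at 17.7 and 30.7 FPKM (ratio 1.73, interval 1.52 to 1.98). Angpt1, the main TIE2 agonist, chosen after its values were seen, was at 3.57 and 2.85 FPKM. Of 14 analysed genes of angiopoietin and Tie signalling, 1 was above 3/2 (Angpt4), 2 below 2/3 and 11 between, with a median log2 ratio of -0.05. The 2 below were Dok2, an adaptor of TIE2, at 5.40 and 3.42 FPKM, and Svep1, at 1.89 and 0.882 FPKM. The general kinase and phosphatase genes Akt1 and Ptpn11, at 125 and 60.6 FPKM in WT, were at 112 and 58.5 FPKM in KO. Grb7 was not analysed here.

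None of the analysed genes around endoglin had a ratio past the limits. Of 21 endoglin and BMP receptor signalling genes, 18 were analysed and all 18 lay between 2/3 and 3/2, with a median log2 ratio of -0.02. Genes of receptors that endoglin works with, also chosen after their values were seen, lay within the limits. Acvrl1, encoding the BMP9 receptor ALK1, was at 10.8 and 9.92 FPKM and Bmpr2 at 20.7 and 20.6 FPKM. The intervals of both ratios included 1. Tgfbr2 was lower in KO, at 40.8 and 33.8 FPKM (ratio 0.828), and its interval of 0.785 to 0.873 left out 1. The target gene Id3 was at 290 FPKM (WT) and 283 FPKM (KO), and Id1 at 115 and 149 FPKM. Mmp14, a membrane protease that sheds endoglin, was at 133 and 121 FPKM. Acvr2b, an activin receptor gene under 1 FPKM in both libraries and so left out, was at 0.959 and 0.466 FPKM, a ratio of 0.486 with an interval of 0.166 to 1.29 from 14 and 7 fragments. The ligand genes Gdf2 and Bmp10 were not analysed here.

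The genes of the secreted proteins, Egfl7 and Vwf, were both higher in the KO library and just inside the upper limit. Egfl7 (NCBI gene 353156), on chromosome 2 with bounds 26436576 and 26448202, was at 4.22 and 6.16 FPKM. The ratio was 1.46 (interval, 1.06 to 2.02) from 66 and 101 fragments. Egfl7 is the host gene of Mir126, which lies inside it from 26446877 to 26446949 in NCBIM37. The mature miRNA from this hairpin is given because it shares the Egfl7 transcription unit, with the seed (bases 2 to 8) in capitals (RefSeq, GRCm38.p6, chr2:26591402-26591423, plus strand). The libraries did not measure the mature miRNA.
mmu-miR-126a-3p: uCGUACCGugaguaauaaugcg
Vwf (NCBI gene 22371), on chromosome 6 with bounds 125502966 and 125636697, was at 0.991 and 1.48 FPKM. Its ratio of 1.497, from 80 and 123 fragments (interval, 1.12 to 2.01), passed 3/2 with the libraries rescaled to the same total, at 1.501. Of the 12 genes for partners and handling of von Willebrand factor, 6 were analysed. Rab3d, a small GTPase of secretory granules, was below 2/3, at 4.31 and 2.78 FPKM, and the other 5 lay between. The highest of this list were Plat at 68.9 and 60.6 FPKM, Exoc4 at 57.9 and 59.2 FPKM, and Thbd at 62.7 and 49.1 FPKM. Adamts13 and Selp were not analysed here.

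The gene of the transcription factor ERG had the lowest WT level of the 10 genes. Erg (NCBI gene 13876), on the minus strand of chromosome 16 from 95581811 to 95751972 in WT, was at 0.667 FPKM (WT) and 1.16 FPKM (KO). Its ratio of 1.75 was past 3/2, but 20 and 36 fragments gave an interval of 0.981 to 3.20 that included 1. With a pseudocount of 1 FPKM the ratio was 1.30. Of the 9 endothelial genes with an interval, which include Tek but not Eng, 5 had one above 1 and 0 had one below 1. The 5 were Pecam1, Emcn, Esam, Egfl7 and Vwf. Without Tek, which was not analysed, they were 5 of 8. Over 11425 analysed genes with such an interval, 21.9% lay above 1 and 17.7% below.

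Other genes of endothelial cells did not share one direction. Of 37 further endothelial genes, 24 were analysed, with 6 above 3/2, 5 below 2/3 and 13 between, and 12 of the 24 were higher in KO. Their median log2 ratio was 0.06. A gene counted below 2/3, Slco1a4, was listed in WT only, at 1.18 FPKM, and its place in the KO table is covered by the row of Slco1a5. Cdh5, which encodes VE-cadherin, the defining adherens junction protein of endothelium, was at 31.8 FPKM (WT) and 16.1 FPKM (KO). Its ratio of 0.507 (interval, 0.458 to 0.560) lay on the other side of 1 from that of Pecam1, and the intervals did not overlap. The bounds of the Cdh5 row differed between the tables. So did those of Flt1, Kdr, Prox1, Jam2, Ocln and Angpt4, which were higher in KO. Plvap, a protein of endothelial fenestrae and caveolae, was at 3.92 and 8.76 FPKM (ratio 2.24, interval 1.67 to 3.02). Cd34, a sialomucin of endothelium and progenitor cells, was at 43.4 and 77.5 FPKM (ratio 1.79, interval 1.65 to 1.93). Prox1, a factor of lymphatic endothelium that is also known in DG neurons, was at 1.05 and 2.17 FPKM. Itm2a was at 48.8 and 27.8 FPKM, a ratio of 0.569. Slc2a1, which encodes the glucose transporter GLUT1, was at 41.2 and 49.4 FPKM, within the limits. The VEGF receptor genes Flt1 (4.07 and 6.97 FPKM, ratio 1.71, interval 1.465 to 2.004) and Kdr (4.23 and 6.09 FPKM) were higher in KO. Flt4, also a VEGF receptor gene, was not, at 4.58 and 4.26 FPKM (ratio 0.931, interval 0.779 to 1.11). Abcb1a and Selp were not analysed here. Slco1a4, Slco1a5, Kdr and Flt4 were named after their values were seen.

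**Figure D4:**
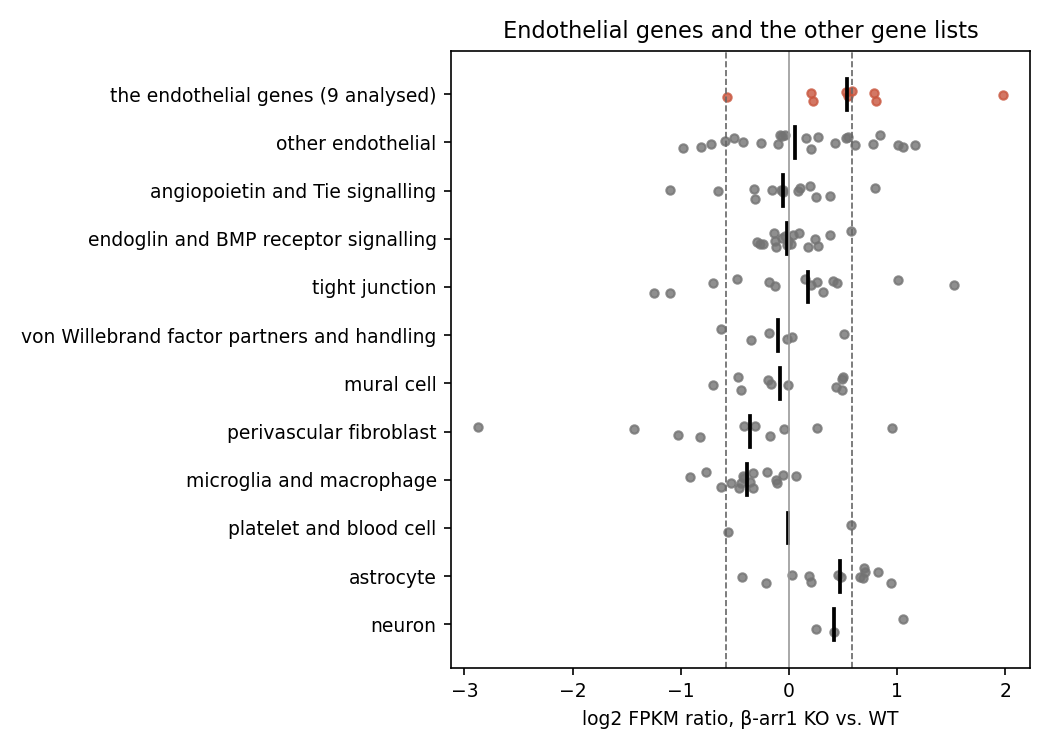
Log2 FPKM ratio of β-arr1 KO vs. WT for each analysed gene with a value in both libraries, by gene list, with dashed lines at the limits and a black bar at the list median (from values with 0.1 FPKM added). The endothelial genes (red) have a median of 0.54, the astrocyte genes 0.47, the further endothelial genes 0.06, and the microglia and macrophage genes -0.39. The red point farthest to the right is Eng, whose KO row also covers Ak1, and the median without Eng is 0.51. The neuron median of 0.42 rests on 3 analysed genes of 9 (Tubb3, Stmn2 and Prox1), and Prox1 is also a further endothelial gene.

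The endothelial genes made up little of either library. All 10 summed to 101.6 FPKM (WT) and 236.0 FPKM (KO), a ratio of 2.32, of which the Eng row held 40.5% and 68.9%. Without Eng the sums were 60.4 and 73.4 FPKM, a ratio of 1.22. Lists for other cells that a DG culture can hold were read beside this. Among microglia and macrophage genes, 1 of 16 analysed was higher in KO, and Cd68, Mrc1 and Lyz2 were below 2/3, with Lyz2 at 3410 and 2009 FPKM, Tyrobp at 317 and 219 FPKM and C1qc at 278 and 208 FPKM. The median log2 ratio of that list was -0.39. In the mural cell list, 1 of 10 analysed genes was past a limit (Rgs5, at 5.83 and 3.58 FPKM), and Acta2 was at 2478 and 2469 FPKM, Tagln at 2915 and 2597 FPKM and Cnn1 at 265 and 231 FPKM. The Cnn1 row bounds differed between the tables, and Ecsit and Zfp653, which overlap it in WT, were listed in WT only, so its values do not cover the same stretch. Pdgfrb, Kcnj8 and Ndufa4l2 were not analysed here. In the perivascular fibroblast list, 4 of 10 were below 2/3 (Col1a1, Col1a2, Col3a1 and Dcn) and 1 above 3/2 (Pdgfra), with Col1a1 at 420 and 237 FPKM, Mgp at 277 and 224 FPKM and a summed ratio of 0.651. The astrocyte list had 6 of 13 genes above 3/2 and 0 below, with a median log2 ratio of 0.47 and a summed level of 487 and 564 FPKM. Atp1b2 was at 70.2 and 113.3 FPKM, Glul at 83.3 and 61.8 FPKM, and Aqp4 at 7.05 and 13.5 FPKM. The part of these cell types in the ratios of the endothelial genes was not tested.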

How the data were processed

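RNA was taken from cultured DG astrocytes of WT and β-arr1 KO mice, 1 library per genotype. The authors aligned the reads to mm9 with TopHat (1.4.0 in the submitters' processing notes), estimated expression with Cufflinks and deposited 1 FPKM value per gene. Tables were joined by symbol (the highest row where rows share one), genes absent from either table were set to 0 there, and 1 was added to each start. Ratios carry no pseudocount.

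Fragment counts were estimated from the longest GENCODE transcript and the steps of values under 0.15 FPKM (70.7% and 70.8% of 416 and 435 genes lay within 5% of a step). Intervals are exact, Clopper-Pearson for ratios and Poisson for levels, and take the same transcript length in both libraries. None was computed where a row spans what the other table lists as several genes.

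The endothelial genes and the 11 other lists were chosen with earlier results of these data known. The rule named the endothelial genes, the 3 highest of each list, those past the limits with 1 FPKM or more in both libraries (up to 4 of a long list) and genes overlapping an endothelial gene. All other genes were named after their values were seen. The computation was tested on simulated data. Alternatives were other scalings, pseudocounts, filters, limits and summed rows. Python 3.11.15, scipy 1.17.1, pandas 2.3.3 and matplotlib 3.10.9 were used.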

Additional observations from a re-analysis of the deposited data

How the results depend on the processing

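With 1 library per genotype, neither genotype effects nor their spread can be estimated. The number of endothelial genes past the limits was 3 as reported and 2 to 4 under the scalings, pseudocounts, filters and summed rows tried, and it was 1 (Eng) with limits of 2 and 1/2. The median log2 ratio fell to 0.32 with a pseudocount of 1 FPKM. The summed level, with a ratio of 2.32 as deposited, had a ratio of 1.08 with the Ak1, Eng and Fpgs rows summed and 1.22 with Eng left out, both chosen after seeing the data. For single genes, Vwf passed 3/2 on rescaling to the same total, Cldn5 passed 2/3 on rescaling by the median ratio or the upper quartile, and Erg fell inside the limits with a pseudocount of 1 FPKM. No endothelial gene's ratio crossed 1 under these alternatives. The genes with the fewest fragments (Cldn5, Tek, Tie1 and Erg) have intervals that include 1. No paired analysis was possible because each genotype has 1 library.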

Other observations

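The annotation deposited with the tables gives the terms angiogenesis and vasculogenesis to genes beyond the endothelial ones. Of 150 analysed genes with the term angiogenesis, which include Tie1, Eng and Egfl7, 18 (12%) were above 3/2 and 13 (8.67%) below 2/3, with a median log2 ratio of 0.03. Of 52 with the term vasculogenesis, 8 (15.4%) were above 3/2 and 2 (3.85%) below, with a median of 0.16. Among all analysed genes the shares were 9.56% and 8.28%. Both counts above 3/2 include Eng, whose KO row also covers Ak1. These terms were chosen after the tables had been seen. Blood cell genes were low. In a list of 8 platelet and blood cell genes, 4 had a row in either table, with the highest being Pf4, which macrophages also express, at 16.1 FPKM (WT) and 10.9 FPKM (KO), and Ppbp at 1.499 and 2.23 FPKM. Itga2b, the platelet integrin, was at 0.917 and 0.849 FPKM. Among 9 neuron genes, Tubb3 (44.7 and 59.8 FPKM) and Stmn2 (36.6 and 43.4 FPKM) were the highest, and Snap25, Syt1 and Rbfox3 were under 0.3 FPKM in both libraries.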
